A study of Mus musculus with 4 samples.

Results

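Fbp2, pyruvate carboxylase (Pcx) and 6 enzymes that move reducing equivalents and amino groups between cytosol and mitochondria (Mdh1, Got1, Got2, Gpd1, Gpd2 and Gpt2) were followed in RNA sequencing of mouse muscle. These 8 genes, out of 33923 distinct gene symbols in the table, were chosen by name with values from the same libraries already known, among them the large differences of Fbp2 and Pcx between the genotypes. Their difference between MCK-TD and Con-TD is therefore given as a description. Each stood on 1 row of the table, and all 8 passed the filter on low values. The samples were 2 MCK-TD libraries (A and B) and 2 Con-TD libraries (F and G) of GTN muscle from C57BL/6 mice, and they share strain and tissue. The labels expand neither genotype name and give no altered gene, driving promoter, age or treatment. They do not say whether the 2 libraries of a group came from separate animals, so the p-values below reflect the spread among these libraries alone, and that spread may be technical.

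Levels are given in deposited FPKM units, counts of fragments scaled by transcript length and by the mapped fragments of the library. Relative depth, read from the most common ratio between libraries in rows under 0.2 FPKM, lay between 0.935 and 1 of the deepest library (Con-TD F), and the absolute depth is unknown. Pearson's r of log2 values across genes, which are not independent replicates, was 0.946 between the MCK-TD libraries, 0.953 between the Con-TD libraries and 0.881 to 0.904 between libraries of different groups. The 8 fibre markers listed for skeletal muscle were present in every library, with sums of 65490 and 87990 FPKM in MCK-TD and 95530 and 87880 FPKM in Con-TD, of which Mylpf was the largest part in every library. Of these 8, 4 fell at a limma adjusted p under 0.05 (Ckm, Acta1, Myh2 and Myh4), 1 rose (Des) and 3 were not called. By the same test 6.45% of all rows fell and 24.3% rose. No batch is recorded, and a batch that followed the genotype cannot be told apart from it.

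Fructose 1,6-bisphosphatase removes a phosphate from the product of phosphofructokinase, and Fbp2 encodes the form found in muscle, where it serves glycogen synthesis from lactate and other small precursors. Pyruvate carboxylase, a biotin enzyme of the mitochondrial matrix, turns pyruvate into oxaloacetate and so refills the citric acid cycle. NADH made in glycolysis cannot cross the inner mitochondrial membrane. The malate-aspartate shuttle (malate dehydrogenases Mdh1 and Mdh2, aspartate aminotransferases Got1 and Got2, and carriers) and the glycerol phosphate shuttle (cytosolic Gpd1 and mitochondrial Gpd2) pass its electrons inward instead. Gpt2 is the mitochondrial alanine aminotransferase, which links pyruvate and glutamate to alanine and 2-oxoglutarate.

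Fbp2 and Pcx stood far lower in MCK-TD muscle, both enzymes of the glycerol phosphate shuttle were lower, and Mdh1 was higher. Got1 was higher by a smaller amount, and the MCK-TD and Con-TD libraries overlapped for Got2 and Gpt2. In the limma fit over all 12474 rows tested (Benjamini-Hochberg adjustment, called at an adjusted p under 0.05), 4 of the 8 genes were called lower (Fbp2, Pcx, Gpd1 and Gpd2), 1 was called higher (Mdh1) and 3 were not called. Over all rows, 30.8% were called, 24.3% higher and 6.45% lower in MCK-TD. Since the genes were selected on this same contrast, nothing is read from their count. For 6 of the 8 genes the groups did not overlap, against 72.0% of all rows.

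**Figure D1:**
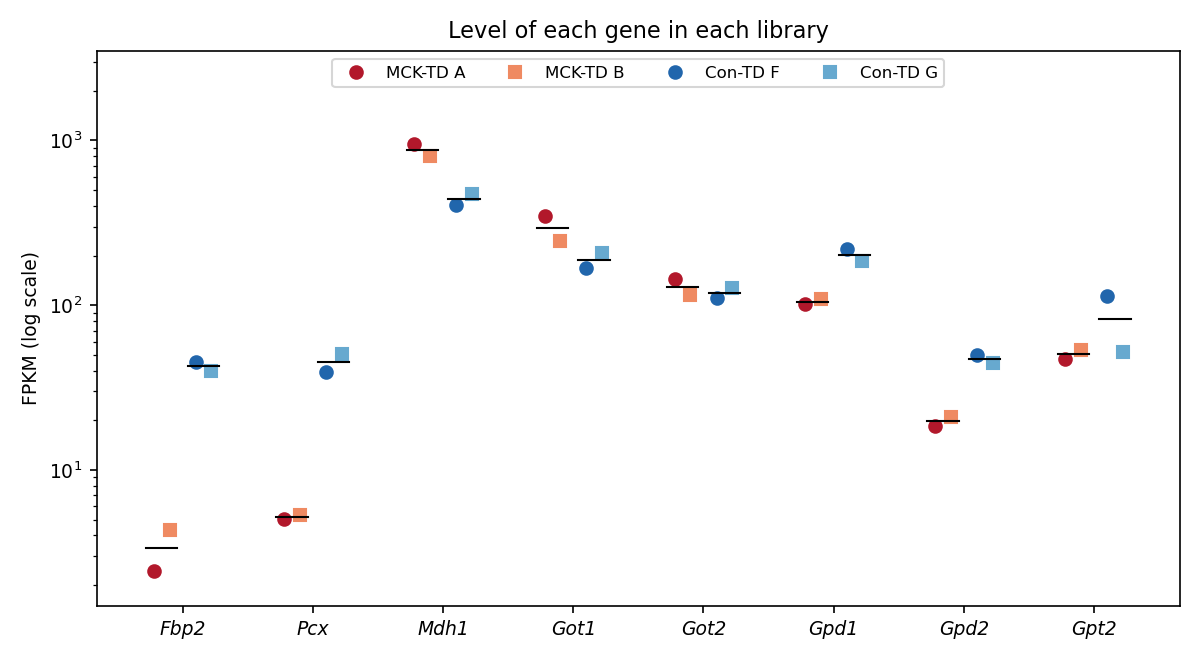
FPKM (log scale) of the 8 genes in each library, with points for libraries and black lines for group means (n = 2 each). Fbp2 and Pcx reach at most 5.32 FPKM in the MCK-TD libraries and at least 39.4 FPKM in the Con-TD libraries, and Mdh1 is the most abundant of the 8 in all 4.

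Fbp2 was at 2.45 and 4.32 FPKM in MCK-TD A and B, against 45.1 and 39.9 FPKM in Con-TD F and G. The groups lay far apart, and the MCK-TD mean of 3.38 ± 1.32 was 12.6-fold lower than the Con-TD mean of 42.5 ± 3.65 (SD, n = 2 each). On the scale of log2(FPKM + 1), which understates changes of low genes, the change was -3.34 (SE 0.24), the 27th lowest of all 12474 rows. Fbp1, the liver form of the enzyme, was below the filter on low values in these libraries. It was listed at 0.214 and 0 FPKM in MCK-TD and at 0.00178 and 0.109 FPKM in Con-TD.

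Pcx was at 5.05 and 5.32 FPKM in the MCK-TD libraries, against 39.4 and 50.4 FPKM in the Con-TD libraries. The 2 MCK-TD values lay close together, at 5.19 ± 0.193 FPKM (SD), 8.66-fold below the Con-TD mean of 44.9 ± 7.72 FPKM. Its log2 change was -2.88 (SE 0.15), the 46th lowest. Lrfn4, annotated inside Pcx on the opposite strand, was at 0.667 and 0.659 FPKM in MCK-TD and 0.944 and 3.42 FPKM in Con-TD. Whether strand was used in counting is not given in the sources used here.

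The sequences before the starts of Fbp2 and Pcx are shown because these 2 genes had the largest differences of the 8. They are the 250 bases upstream of each start in RefSeq (GRCm38.p6, another build than the mm9 of the deposited values), matched by symbol, read 5′ to 3′ on the strand of the gene. Capitals mark E-boxes (CANNTG), the motif that muscle regulatory and other basic helix-loop-helix factors bind. Fbp2 lies on the minus strand, at chr13:62858401-62858650. Pcx has 2 starts on the plus strand, at chr19:4510222-4510471 and chr19:4594069-4594318.
Fbp2: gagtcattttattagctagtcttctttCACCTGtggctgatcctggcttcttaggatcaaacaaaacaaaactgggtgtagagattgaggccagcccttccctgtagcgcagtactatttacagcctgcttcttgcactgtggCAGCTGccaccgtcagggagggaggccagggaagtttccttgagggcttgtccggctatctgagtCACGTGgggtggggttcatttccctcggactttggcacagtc
Pcx, first start: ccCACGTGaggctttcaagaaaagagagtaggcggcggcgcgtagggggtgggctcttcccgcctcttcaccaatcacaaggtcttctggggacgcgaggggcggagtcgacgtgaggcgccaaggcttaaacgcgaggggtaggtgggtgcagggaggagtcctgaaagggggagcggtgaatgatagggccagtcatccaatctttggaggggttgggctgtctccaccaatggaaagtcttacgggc
Pcx, second start: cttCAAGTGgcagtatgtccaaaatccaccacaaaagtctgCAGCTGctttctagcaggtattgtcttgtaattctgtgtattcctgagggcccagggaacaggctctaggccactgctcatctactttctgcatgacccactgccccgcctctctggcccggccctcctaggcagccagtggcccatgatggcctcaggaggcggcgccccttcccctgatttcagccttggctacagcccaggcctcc

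The Fbp2 window held 3 E-boxes, which began 223, 107 and 42 bases before the start. The first Pcx window held 1, which began 248 bases before the start, and the second held 2, at 247 and 209 bases. An E-box was present in 66.2% of the 32851 RefSeq windows of the same length, so it is common. The form CACGTG occurred in the Fbp2 window and in the first Pcx window. Its share over all windows was not counted, so nothing is read from this. Windows were found for 7 of the 8 genes (all but Gpd1), with 2 starts each for Pcx and Gpd2. None of these 9 windows held the other motifs searched on both strands, namely MEF2 (in 2.92% of all windows), ERR TNAAGGTCA (1.14%), the antioxidant motif TGACNNNGC (10.2%), the amino acid response motif TGATGNAAT (0.816%) and CRE TGACGTCA (1.55%). E-boxes were also present in the windows of Mdh1 (1), Got2 (1) and the first start of Gpd2 (3), so genes that stood higher and lower both had them. A match is a description of letters and was not tested as a binding site.

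In the cytosol, Mdh1 reduces oxaloacetate to malate with NADH. Mdh1 was at 957 and 799 FPKM in the MCK-TD libraries and at 408 and 470 FPKM in the Con-TD libraries. Both MCK-TD values lay above both Con-TD values, and the means were 878 ± 112 and 439 ± 44.5 FPKM (SD), with a log2 change of 0.997 (SE 0.15). Wdpcp, which overlaps Mdh1 on the opposite strand, was at 1.68 and 2.09 FPKM in MCK-TD and 0.499 and 0.681 FPKM in Con-TD, far below Mdh1 in every library. The mitochondrial partner Mdh2 was at 584 and 455 FPKM in MCK-TD and 422 and 454 FPKM in Con-TD, so that 1 MCK-TD library lay at the upper Con-TD value (limma adjusted p = 0.314).

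Got1, the cytosolic aspartate aminotransferase, was at 347 and 244 FPKM in MCK-TD and at 168 and 206 FPKM in Con-TD. The groups did not overlap, but the gap between the nearest libraries was smaller than the distance between the MCK-TD libraries, and Got1 was not called (log2 change 0.64, SE 0.22). Got2, the mitochondrial form, was at 143 and 115 FPKM in MCK-TD and at 111 and 127 FPKM in Con-TD, with interleaved libraries (log2 change 0.11, SE 0.15). A processed copy, Got2-ps1, was at 32.5 and 25.0 FPKM in MCK-TD and 28.8 and 24.8 FPKM in Con-TD. Fragments shared with it make the Got2 level uncertain.

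Gpd1 converts dihydroxyacetone phosphate to glycerol 3-phosphate with NADH. Gpd1 was at 102 and 108 FPKM in MCK-TD, against 219 and 186 FPKM in Con-TD, with means of 105 ± 4.45 and 203 ± 23.2 FPKM (SD). Its log2 change was -0.94 (SE 0.12). Gpd2, the flavoprotein of the inner mitochondrial membrane that oxidises glycerol 3-phosphate back, was at 18.4 and 21.1 FPKM in MCK-TD and at 50.1 and 44.4 FPKM in Con-TD. The 2 groups were again separate, with means of 19.7 ± 1.92 and 47.2 ± 3.99 FPKM and a log2 change of -1.22 (SE 0.13).

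Gpt2 was at 47.4 and 53.5 FPKM in MCK-TD and at 114 and 52.0 FPKM in Con-TD. As a ratio, the Con-TD libraries were further apart than for any other of the 8 genes, and Con-TD G lay between the MCK-TD values. Its log2 change of -0.60 (SE 0.40) therefore rested on Con-TD F and was -0.05 without that library. Gpt, the cytosolic alanine aminotransferase, rose, to 16.2 and 13.0 FPKM in MCK-TD against 7.31 and 8.90 FPKM in Con-TD (log2 change 0.77, SE 0.16, limma adjusted p = 0.0337, but 0.0745 under median of ratios and 0.106 after quantile normalization).

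A ratio of FPKM within a library does not change when the library is scaled by 1 factor. The Fbp2 to Pfkm ratio, which sets the phosphatase beside the muscle phosphofructokinase that it opposes, was 0.00318 and 0.00587 in MCK-TD and 0.0514 and 0.0451 in Con-TD. The Pcx to Pdha1 ratio, which sets the enzymes that send pyruvate to oxaloacetate and to acetyl-CoA side by side, was 0.0357 and 0.0382 in MCK-TD and 0.221 and 0.267 in Con-TD. Both ratios were lower in each MCK-TD library than in either Con-TD library.

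The cytosolic to mitochondrial ratio of malate dehydrogenase (Mdh1 to Mdh2) was 1.64 and 1.76 in MCK-TD, against 0.966 and 1.04 in Con-TD, where both forms had nearly equal levels. For aspartate aminotransferase (Got1 to Got2) it was 2.42 and 2.11 in MCK-TD and 1.51 and 1.63 in Con-TD. In both of these pairs the cytosolic form took a larger part in MCK-TD. The Got1 to Got2 ratio carries the uncertainty of the Got2 level. The Gpd1 to Gpd2 ratio was 5.56 and 5.14 in MCK-TD and 4.38 and 4.20 in Con-TD, a smaller difference in the same direction. It came to 0.28 on the log2 scale with 1 FPKM added to each gene. The Gpt2 to Gpt ratio was 2.92 and 4.12 in MCK-TD and 15.5 and 5.85 in Con-TD, again with the Con-TD libraries far apart. For all 6 ratios the groups did not overlap, which 72.0% of all rows also showed for their levels. These 6 ratios were not tested, because 2 libraries a group cannot reach an exact permutation p under 0.05 and at least 1 gene of each pair was chosen on its values.

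**Figure D2:**
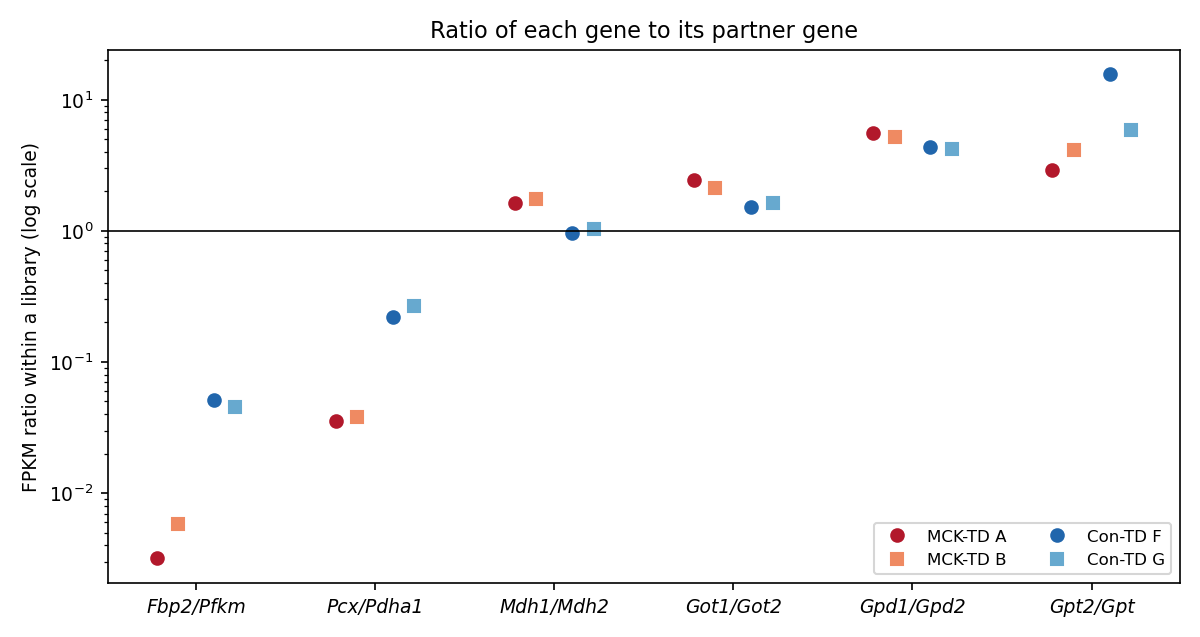
FPKM ratio of each gene to its partner gene within each library (log scale), with 1 point a library and a line at equal levels. The Mdh1 to Mdh2 ratios are 1.64 and 1.76 in MCK-TD and lie on both sides of the line in Con-TD (0.966 and 1.04), and the Fbp2 to Pfkm ratios are at most 0.00587 in MCK-TD.

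The order of the 8 levels also differed between the groups. Mdh1 was highest in every library and made up 59.0% and 59.2% of the summed FPKM of the 8 genes in MCK-TD, against 35.3% and 40.0% in Con-TD. Gpd1 stood below Got2 in both MCK-TD libraries, with 6.29% and 8.03% of the sum, and above Got2 in both Con-TD libraries, with 19.0% and 15.8%. Fbp2 and Pcx together were the lowest 2 in MCK-TD. In Con-TD the levels of Gpd2, Pcx and Fbp2 lay close together, between 39.4 and 50.4 FPKM, and their order differed between Con-TD F and G. The order of Got1 and Gpd1 and that of Gpt2 and Got2 also differed between these libraries.

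Other scalings of the libraries moved all 8 changes together. With median of ratios scaling the median log2 change of all rows was 0.0072, with quantile normalization -0.05, and with equal FPKM sums outside mitochondrial and small RNA rows 0.27, against 0.22 on the deposited scale. Fbp2 ran from -3.61 to -3.29 and Pcx from -3.15 to -2.82 over these 4 scalings. Gpd1 ran from -1.19 to -0.87, Gpd2 from -1.48 to -1.16 and Mdh1 from 0.74 to 1.06, and the same 5 genes were called in each. Got2 turned negative, at -0.14 under median of ratios and -0.082 after quantile normalization.

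**Figure D3:**
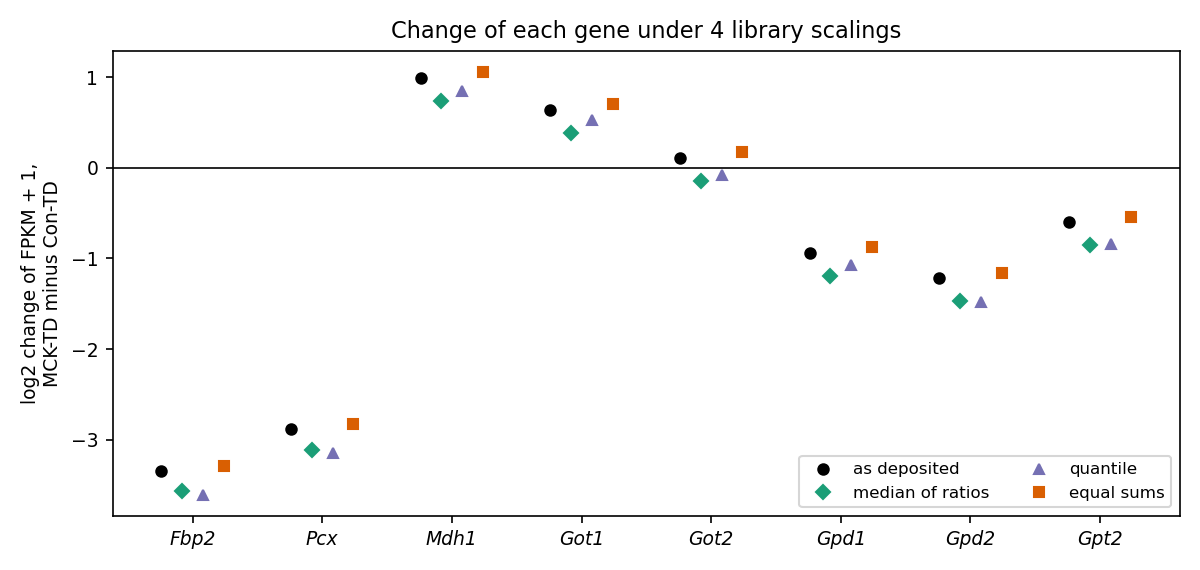
Log2 change of FPKM + 1 (MCK-TD minus Con-TD) of each gene under 4 library scalings, 1 symbol a scaling. Got2 changes sign between scalings (0.11 as deposited and -0.14 with median of ratios), whereas the other 7 keep theirs.

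The wider pathway was followed in 77 further genes in 7 lists, of which 65 passed the filter on low values (1 of them, Gpd1l, stands in 2 lists). By the limma test over all rows 12 of the 65 rose in MCK-TD and 10 fell, with a median log2 change of 0.10, against 24.3% and 6.45% of all rows and a median of 0.22. Median of ratios scaling turned this balance round (7 rose, 19 fell), as did quantile normalization (7 rose, 17 fell), while equal sums gave 13 that rose and 8 that fell. The calls over all rows moved as well, with 14.7% higher and 12.1% lower under median of ratios, 12.7% higher and 13.4% lower after quantile normalization, and 26.9% higher and 5.14% lower with equal sums. Limma adjusted p-values of the 22 calls ran from 0.00574 for Pdp1 to 0.0463 for Pdha1.

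Of 12 other shuttle enzymes and carriers, 1 rose, 3 fell and 8 were not called (median log2 change -0.03). Under median of ratios 1 rose and 4 fell (median -0.24), and the other scalings left the counts at 1 and 3. The mitochondrial malic enzyme Me2 rose, at 5.83 and 6.72 FPKM in MCK-TD against 0.924 and 0.891 FPKM in Con-TD (limma adjusted p = 0.00738). The related malic enzyme Me3 fell, at 29.7 and 32.3 FPKM in MCK-TD against 45.1 and 45.9 FPKM in Con-TD (limma adjusted p = 0.0254). Ldha, the muscle lactate dehydrogenase, which regenerates cytosolic NAD, fell as well, at 955 and 942 FPKM in MCK-TD against 1565 and 1375 FPKM in Con-TD. So did Ldhd, which oxidises D-lactate, at 6.78 and 4.77 FPKM in MCK-TD against 12.9 and 11.9 FPKM in Con-TD. Ldhb, another lactate dehydrogenase gene, was at 328 and 196 FPKM in MCK-TD and 81.5 and 176 FPKM in Con-TD. Ldhb was not called (limma adjusted p = 0.151) and was named after its values were seen. The malate-aspartate carriers were not called on the deposited scale. Slc25a11, the malate carrier, was at 108 and 83.1 FPKM in MCK-TD and 128 and 136 FPKM in Con-TD (limma adjusted p = 0.0933, but 0.0418 under median of ratios). Slc25a12, the aspartate-glutamate carrier, was at 188 and 159 FPKM in MCK-TD and 189 and 199 FPKM in Con-TD, and its low-level paralog Slc25a13 was at 2.83 and 1.12 FPKM in MCK-TD and 0.107 and 0.162 FPKM in Con-TD (limma adjusted p = 0.0502). These 3 carriers were chosen after their values were seen.

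**Figure D4:**
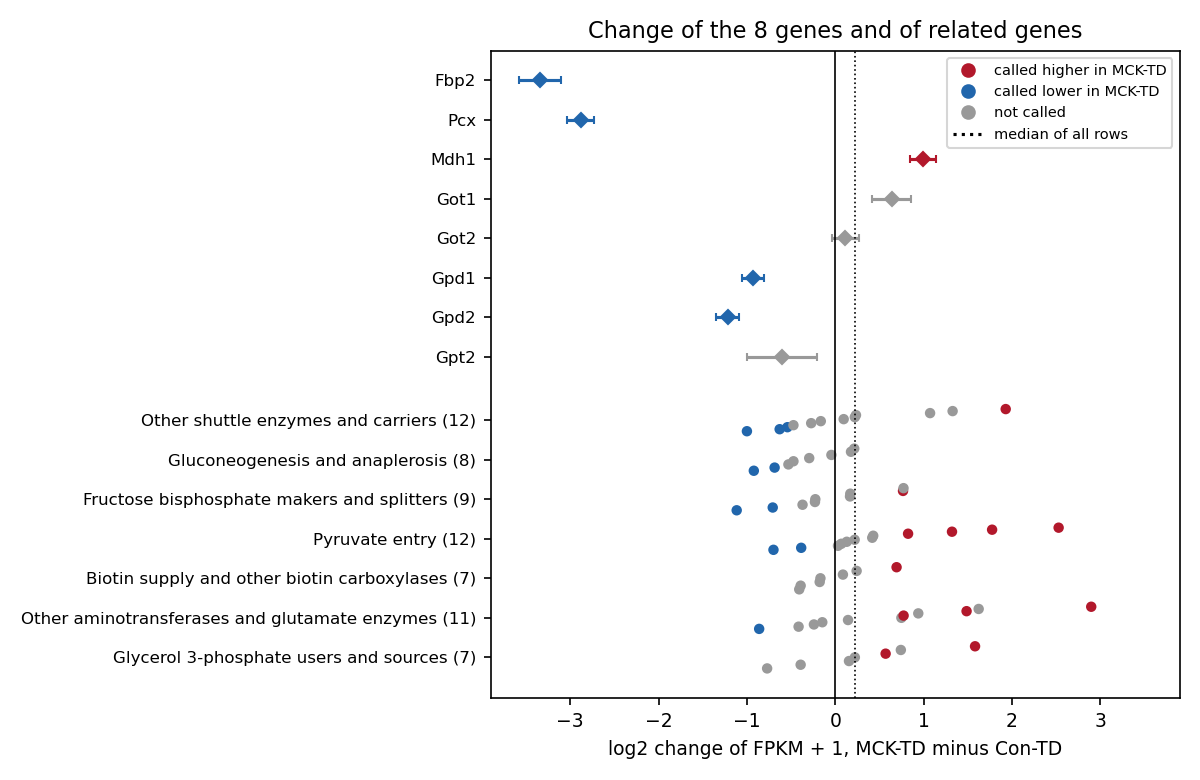
Log2 change of FPKM + 1 (MCK-TD minus Con-TD) of the 8 genes (diamonds, bars are the limma SE) and of the related genes that passed the filter, 1 row a list with its number of genes. Fbp2 and Pcx, chosen with their large differences known, lie at -3.34 and -2.88, and the lowest related gene shown is Pfkfb3 at -1.12.

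Pck1, Pck2, Fbp1 and G6pc, which serve glucose output in the liver, were below the filter, with at most 2.67 FPKM in any library (Pck1 in Con-TD G). Of the 8 listed genes of gluconeogenesis and anaplerosis that passed it, 0 rose and 2 fell (4 under median of ratios, 4 under quantile normalization). Slc37a4, the glucose 6-phosphate transporter of the endoplasmic reticulum, fell, at 22.2 and 30.5 FPKM in MCK-TD against 54.7 and 46.0 FPKM in Con-TD. Mut, which makes succinyl-CoA in the last step of propionate breakdown, fell too, at 10.5 and 11.5 FPKM in MCK-TD against 18.1 and 18.5 FPKM in Con-TD. Pccb, of the biotin enzyme propionyl-CoA carboxylase, was at 21.7 and 17.5 FPKM in MCK-TD and 29.0 and 28.3 FPKM in Con-TD (limma adjusted p = 0.0512, but 0.0291 under median of ratios and 0.0298 after quantile normalization). Adsl, of the purine nucleotide cycle, was at 47.4 and 43.3 FPKM in MCK-TD and 58.6 and 53.2 FPKM in Con-TD (limma adjusted p = 0.115, but 0.0405 under median of ratios and 0.0448 after quantile normalization).

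Among 9 makers and splitters of fructose bisphosphates, 1 rose and 2 fell (0 and 4 under median of ratios, 0 and 3 under quantile normalization). Pfkfb3, which makes the phosphofructokinase activator fructose 2,6-bisphosphate, fell, at 16.9 and 16.5 FPKM in MCK-TD against 36.4 and 38.2 FPKM in Con-TD. Pfkfb2, a bifunctional enzyme that makes and removes the same activator, rose, at 4.05 and 2.89 FPKM in MCK-TD against 1.57 and 1.64 FPKM in Con-TD (limma adjusted p = 0.0407, but 0.0777 under median of ratios and 0.110 after quantile normalization). Aldoa, the muscle aldolase, fell, at 8915 and 8952 FPKM in MCK-TD against 15485 and 13735 FPKM in Con-TD (limma adjusted p = 0.0245, but 0.196 with quantile normalization). Pfkm, the muscle phosphofructokinase, was at 769 and 735 FPKM in MCK-TD and 877 and 886 FPKM in Con-TD (limma adjusted p = 0.148, but 0.0340 under median of ratios and 0.0458 after quantile normalization), and Pfkp, another isoform, was at 3.51 and 5.96 FPKM in MCK-TD and 2.20 and 2.36 FPKM in Con-TD (limma adjusted p = 0.0790).

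Of 12 genes of pyruvate entry into mitochondria, 4 rose and 2 fell (3 and 2 under either median of ratios or quantile normalization, 4 and 0 with equal sums). Pdk3 and Pdk4, kinases that switch pyruvate dehydrogenase off, rose. Pdk3 was at 9.04 and 7.29 FPKM in MCK-TD against 0.305 and 0.913 FPKM in Con-TD, and Pdk4 was at 180 and 178 FPKM in MCK-TD against 84.4 and 59.5 FPKM in Con-TD. The phosphatase Pdp1, which switches the complex on, also rose, at 80.8 and 82.8 FPKM in MCK-TD against 23.0 and 23.4 FPKM in Con-TD. Pdhx, which anchors a subunit of the complex, rose, at 63.1 and 52.2 FPKM in MCK-TD against 34.7 and 29.5 FPKM in Con-TD (limma adjusted p = 0.0248, but 0.0691 under median of ratios and 0.0778 after quantile normalization). Pdha1, its catalytic subunit, fell slightly, at 142 and 139 FPKM in MCK-TD against 179 and 189 FPKM in Con-TD (limma adjusted p = 0.0463, but 0.0953 with equal sums). The other gene to fall was the kinase Pdk2, at 148 and 114 FPKM in MCK-TD against 220.4 and 203 FPKM in Con-TD (limma adjusted p = 0.0398, but 0.0565 with equal sums, named after its values were seen).

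Of 7 genes of biotin supply and other biotin carboxylases, 1 rose and 0 fell (0 and 1 under either median of ratios or quantile normalization). Btd, which recycles biotin, rose, at 4.92 and 3.82 FPKM in MCK-TD against 2.34 and 2.26 FPKM in Con-TD (limma adjusted p = 0.0362, but 0.0823 under median of ratios and 0.135 after quantile normalization). Mccc2, of the leucine pathway, was at 25.2 and 21.6 FPKM in MCK-TD and 32.3 and 29.5 FPKM in Con-TD (limma adjusted p = 0.0825, but 0.0373 under median of ratios and 0.0348 after quantile normalization). The acetyl-CoA carboxylases Acaca and Acacb were also not called, with log2 changes of -0.41 (SE 0.25) and -0.18 (SE 0.12). Each of these carboxylase changes was nearer to 0 than the -2.88 of Pcx. Since Pcx was chosen with its large difference known, nothing is read from this.

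Of 11 other aminotransferase and glutamate genes, 3 rose and 1 fell (2 and 3 under either median of ratios or quantile normalization). Psat1, the aminotransferase of serine synthesis, rose, at 10.6 and 17.8 FPKM in MCK-TD against 0.950 and 1.003 FPKM in Con-TD. Abat, which degrades the transmitter GABA, rose, at 3.08 and 3.09 FPKM in MCK-TD against 0.489 and 0.426 FPKM in Con-TD. Oat, ornithine aminotransferase, fell, at 45.8 and 61.8 FPKM in MCK-TD against 101 and 93.8 FPKM in Con-TD. Gpt, described above, was the other gene to rise.

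Of 7 sources and users of glycerol 3-phosphate, 2 rose and 0 fell (1 and 1 under either median of ratios or quantile normalization). The glycerol kinase gene, listed as Gyk, rose, at 2.27 and 3.14 FPKM in MCK-TD against 0.202 and 0.254 FPKM in Con-TD. Pnpla2, the adipose triglyceride lipase, rose, at 139 and 132 FPKM in MCK-TD against 93.4 and 88.4 FPKM in Con-TD (limma adjusted p = 0.0221, but 0.0938 under median of ratios and 0.0658 after quantile normalization). Lipe, hormone-sensitive lipase, was at 1.87 and 2.17 FPKM in MCK-TD and 3.35 and 5.09 FPKM in Con-TD (limma adjusted p = 0.0568, but 0.0355 under median of ratios and 0.0313 after quantile normalization), and the acyltransferase gene Agpat9 was at 2.42 and 3.86 FPKM in MCK-TD and 1.06 and 1.88 FPKM in Con-TD. Gpd1l, a paralog of Gpd1, was at 7.69 and 8.10 FPKM in MCK-TD and 6.77 and 6.48 FPKM in Con-TD (limma adjusted p = 0.164, named after its values were seen).

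Beside these genes, the listed macrophage markers mostly rose and the listed fast-fibre markers mostly fell. Markers of the other cell and fibre types were mixed or mostly not called. Fewer cells of a type and less RNA per cell cannot be told apart in bulk muscle. Of 9 fast-fibre markers 8 fell and 0 rose, against 6.45% and 24.3% of all rows. They summed to 66370 and 75260 FPKM in MCK-TD and 122400 and 115900 FPKM in Con-TD. The calls of Tnnt3, Tnni2, Tnnc2 and Pvalb lay near the threshold (limma adjusted p 0.0441 to 0.0484). Of the other fast myosin genes, listed under skeletal muscle, Myh2 fell, also near the threshold (limma adjusted p = 0.0445). All marker calls are those on the deposited scale. Myh1 (means of 1419 FPKM in MCK-TD and 1284 FPKM in Con-TD) and Mylpf (50090 and 51420 FPKM) were not called. Of 8 slow-fibre markers 2 rose and 1 (Myl3) fell, with sums of 962 and 807 FPKM in MCK-TD and 647 and 1424 FPKM in Con-TD. Adipocytes also express Gpd1 and Pcx strongly. The 8 adipocyte markers summed to 202 and 137 FPKM in MCK-TD and 226 and 465 FPKM in Con-TD, with 0 of the 5 tested called, a median log2 change of -1.24 and none at 0 in all libraries of a group. Fabp4 made up most of this sum and overlapped between the groups, at 187 and 116 FPKM in MCK-TD and 185 and 318 FPKM in Con-TD. The other 7, set apart after their values were seen, were each lower in both MCK-TD libraries. Of all rows tested, 72.0% had no overlap in 1 direction or the other, and the share that was lower without overlap was not counted. These 7 summed to 14.6 and 20.1 FPKM in MCK-TD and 41.3 and 147.9 FPKM in Con-TD. Cfd alone was at 122 FPKM in Con-TD G, and Plin1, Lep and Pck1 were below the filter. Adipoq, the defining gene of adipocytes, was at 1.60 and 2.22 FPKM in MCK-TD and 3.32 and 9.77 FPKM in Con-TD.

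Of 10 macrophage markers (9 tested), 7 rose and 0 fell, with sums of 168 and 149 FPKM in MCK-TD and 30.4 and 44.9 FPKM in Con-TD. Of all rows tested, 24.3% rose and 6.45% fell. Endothelial markers (8, of which 2 fell) summed to 34.0 and 24.3 FPKM in MCK-TD and 41.0 and 54.6 FPKM in Con-TD, and markers of fibro-adipogenic progenitors (8, of which 1 fell) to 283 and 371 FPKM in MCK-TD and 457 and 576 FPKM in Con-TD. The 6 hepatocyte markers, among them Fbp1 and only 1 of them tested, summed to 1.04 and 3.37 FPKM in MCK-TD and 6.34 and 12.7 FPKM in Con-TD. Most of each sum was Cyp2e1, the 1 tested, which was not called. Cyp2e1 was at 0.718 and 2.98 FPKM in MCK-TD and 5.77 and 12.1 FPKM in Con-TD. Alb, Apoa1, Ttr, Serpina1a and Fbp1 were below the filter. The part of fibre types and other cells in the levels of the 8 genes was not tested.

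Rows with profiles most like those of Fbp2 and Pcx were taken by the distance between log2(FPKM + 1) values over the 4 libraries, each row centred on its own mean, among 6039 rows with a mean of at least 5 FPKM. These were the highest row of each symbol, leaving out the 8 genes, small RNA and mitochondrial rows. Predicted rows were left out only by name (Gm, Rik, LOC, BC and AK). With 4 libraries in 2 groups this distance mostly reflects the size of the genotype difference. Nearest to Fbp2 were the cadherin gene Cdh4 (distance 0.83), D0H4S114 (0.84), the ciliary neurotrophic factor receptor Cntfr (0.94), the myosin light chain Myl3 (0.97) and spermine oxidase Smox (1.05). Nearest to Pcx were D0H4S114 (0.22), Cntfr (0.40), Myl3 (0.40), the arginine deiminase Padi2 (0.55) and AC162934.1 (0.81). D0H4S114, which RefSeq gives as an older symbol of Nrep, was at 10.2 and 9.05 FPKM in MCK-TD and 67.03 and 76.6 FPKM in Con-TD. Cntfr was at 1.46 and 1.56 FPKM in MCK-TD and 12.9 and 13.9 FPKM in Con-TD. Both rows, like Myl3, were among the nearest 5 of Fbp2 and of Pcx.

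No adjusted call of the 8 genes remained when any of the 4 libraries was left out, which leaves 1 residual degree of freedom. Then 62 to 162 of all rows were called, among them 0 to 1 of the 65 related genes. The direction of 7 of the 8 genes stayed the same whichever library was left out, Got2 being the exception.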

How the data were processed

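RNA of mouse muscle was extracted with Trizol and treated with DNase, per the labels' protocols, and mRNA was enriched and sequenced at BGI, per the series' design text. The authors deposited 1 FPKM value per gene and library, and the submitters' processing notes name STAR, Cufflinks and build mm9. Gene annotation, tool versions and use of strand: not given in the sources used here. An exact 0 in such values can be a failed estimate, so genes at 0 are described as listed at 0. FPKM of rows that share fragments or overlap are uncertain. Both text sheets with notes beside gene names were not used.

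Columns were assigned to samples by title. Values were taken as log2(FPKM + 1), over the 12474 of 37305 rows whose mean reached 1 FPKM. Limma 3.58.1 under R 4.3.3 fitted genotype alone across all these rows, with an intensity trend and 2 residual degrees of freedom. Tests were two-sided with Benjamini-Hochberg adjustment at 0.05. The fit was also run on simulated data with independent errors, to check that it returned the changes put in. Nothing about the calls in these libraries is read from that. Changes are MCK-TD minus Con-TD, and SDs are over 2 libraries.

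The 8 genes and all lists were chosen with earlier results of these data known. Named were the 8 genes, their ratio partners, up to 4 genes a list (calls by size, then by smallest p) and the 5 nearest profiles of Fbp2 and Pcx, and others are marked. A list gene absent under its symbol was matched by an older symbol (Gk as Gyk, Mpc1 as Brp44l, Mpc2 as Brp44, Pkm as Pkm2, Tigar as 9630033F20Rik). Alternatives were other pseudocounts, filters and scalings, no trend, and leaving out each library.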

Additional observations from a re-analysis of the deposited data

How the results depend on the processing

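Calls numbered 3837 over all rows, 5 among the 8 genes and 22 among the 65 related genes. Without a filter on low values they numbered 2043, 4 and 10, and Mdh1, with the same log2 change of 0.997, missed the threshold (limma adjusted p = 0.0586). Leaving out each library in turn gave 62 to 162 calls over all rows, 0 to 0 among the 8 genes and 0 to 1 among the related genes, from 4036 to 4642 rows with an unadjusted p under 0.05. The log2 changes then ran from -3.66 to -3.03 for Fbp2, from -3.05 to -2.71 for Pcx, from 0.87 to 1.13 for Mdh1, from -1.05 to -0.82 for Gpd1 and from -1.31 to -1.12 for Gpd2. They ran from 0.39 to 0.90 for Got1, from -1.16 to -0.05 for Gpt2 and from -0.041 to 0.27 for Got2, the negative value being that without MCK-TD A. Got2 was also reversed with median of ratios scaling (-0.14) and quantile normalization (-0.082), and Mdh2 with median of ratios scaling (-0.022), none of them called. The other settings kept 5 calls among the 8 genes. A pseudocount of 5 brought Fbp2 to -2.51 and Pcx to -2.28, and one of 0.1 took them to -3.67 and -3.08, since both are low in MCK-TD. Higher calls were 79.0% of all calls as deposited, 54.8% under median of ratios and 48.8% after quantile normalization. The absolute depth is unknown, so the precision of low values cannot be given.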
